A study of Mus musculus with 4 samples.

Results

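Genes that mark resident and monocyte-derived macrophages were read in macrophages generated from mouse bone marrow cells. The 9 markers, *Adgre1*, *Itgam*, *Csf1r*, *Ccr2*, *Cd14*, *Mertk*, *Cx3cr1*, *Tmem119* and *Timd4*, were chosen by gene symbol, and all 9 were found among the 16375 genes listed. The WT groups came from wt mice and the LNCKO groups from mice without *lncLy6c*, a long non-coding RNA deleted with Cas9 cuts on either side of its 2 exons on a C57BL/6J background. Bone marrow cells of both genotypes were grown with macrophage colony-stimulating factor (M-CSF). The cells were then left untreated (control) or treated with 500 µM butyrate, a short-chain fatty acid made by gut bacteria, for 24 h. Each of the 4 groups (control and butyrate in WT, and the same in LNCKO) has 1 RNA library, and no source used here gives the age or sex of the donors of these cultures. For the C57BL/6 mice that it obtained from an animal center, the study names either sex and an age of 4 to 6 weeks. The library names of both LNCKO samples do not spell their genotype or treatment. The name of the WT control library spells only the genotype and that of WT butyrate only the treatment, so all groups rest on the sample titles. The deleted transcript itself was not analysed here.

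In the gut, blood monocytes that carry CCR2 enter the tissue and turn into resident macrophages, losing CCR2 and gaining CX3CR1 on the way. Macrophages of other tissues carry their own surface proteins, such as TMEM119 on microglia of the brain and TIMD4 on long-lived macrophages of embryonic origin. F4/80, CD11b and the M-CSF receptor, encoded by *Adgre1*, *Itgam* and *Csf1r*, are shared by most macrophages. The study asks whether butyrate acts through *lncLy6c* to favour resident macrophages, and the comparisons here ask how the markers of both states differed with butyrate in each genotype and between the genotypes.

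The values are FPKM (fragments per kilobase of gene per 1000000 fragments), from libraries of 53363944 to 65521713 fragments, and the markers had from 0 to 100039 fragments in a library. No difference could be tested, since single libraries leave replicate error unknown. Each ratio between libraries is given with a 95% exact conditional (Clopper-Pearson) interval, which covers counting error only, and genes at a ratio of at least 1.5 in either direction were counted. Ratios were computed without a pseudocount, over genes with a mean of at least 100 fragments per library, a limit that 8 of the 9 markers passed and *Timd4* did not. All 10 genes of a macrophage identity list, among them *Cd68*, *Fcgr1*, *Spi1* and the *C1q* genes, passed the limit. Genes of other cells were read as well, and all 10 neutrophil and all 7 B cell genes passed it too. Passing the limit thus does not identify the cells. Per 1000000 fragments, the 10 neutrophil genes summed to 6120 to 9084 over the libraries, the 7 B cell genes to 1172 to 1478 and the 10 macrophage genes to 10722 to 21351. The macrophage sum and its spread rest mostly on *Lyz2*, which had 284461 to 848207 fragments in a library. The next gene of that list, *Lgmn*, had 88824 to 117984, so the sums do not rank the cell types. In such bulk RNA, fewer cells of a type and less RNA per cell cannot be told apart. The 4 Y-linked genes *Ddx3y*, *Eif2s3y*, *Kdm5d* and *Uty* summed to 288 and 308 fragments per 1000000 in the LNCKO libraries against 3.60 and 2.23 in the WT libraries, so that genotype and donor sex cannot be told apart.

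To compare levels between genes, the fragments of each marker were divided by the length of its exons, because the deposited FPKM use the whole span of a gene with its introns. On exon length, with the mean over the 4 libraries, *Adgre1* had an FPKM of 254, *Itgam* 241, *Csf1r* 235 and *Ccr2* 232, against a median of 3.52 over all 16342 genes matched to the annotation. These 4 did not keep 1 order: per exon length *Csf1r* was the highest of them in WT control, at 254, and the lowest in LNCKO butyrate, at 209. *Cd14* followed with 60.0 to 95.6, and no library put it among the first 4. *Mertk*, with 29.6 to 33.2, and *Cx3cr1*, with 18.0 to 30.9, overlapped, and *Cx3cr1* was above *Mertk* in WT control only. *Tmem119* had 3.58 to 12.6 and *Timd4* 0 to 0.50. The scale matters for *Cx3cr1*, whose annotated span of 168264 bases holds 4505 bases of exons (2.68%): per exon length it stood above *Tmem119* in all 4 libraries, and on the deposited scale below it.

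**Figure D1:**
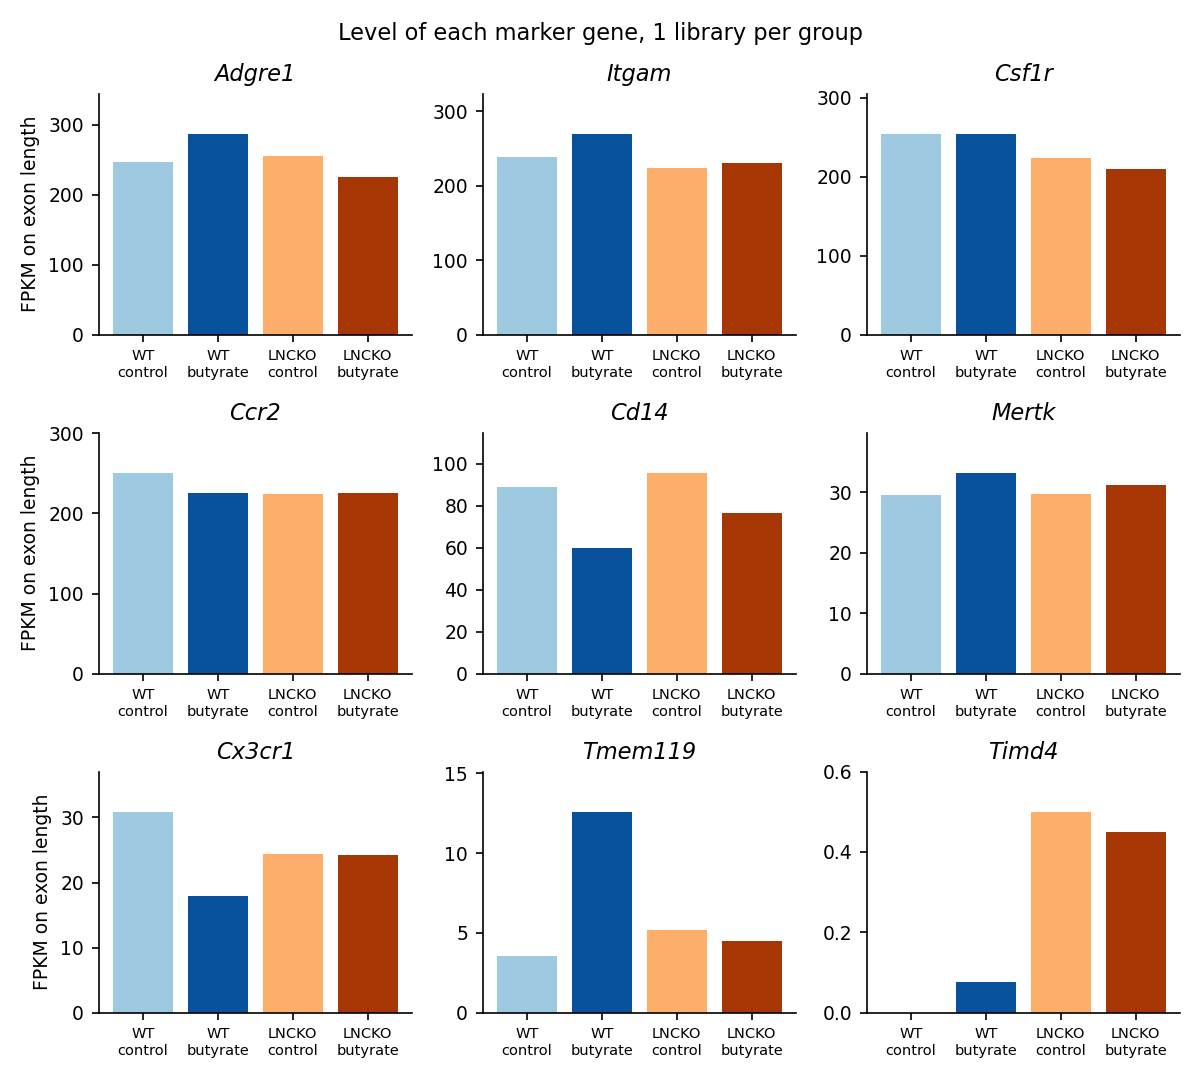
Bars give the FPKM on exon length (vertical axis, from 0) of each marker in the 4 libraries, 1 library per bar and without error bars because no group has replicates. *Tmem119* stands out in WT butyrate with 12.6, *Cx3cr1* is lowest there with 18.0, and *Timd4* has no bar in WT control.

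*Tmem119* encodes a membrane protein used as a marker of microglia, which is also made by bone-forming cells. The gene spans 113793729 to 113800516 of chromosome 5 (- strand, GRCm38, the build of all positions here), and no other annotated gene overlaps it. In WT its deposited FPKM was 1.22 untreated and 4.30 with butyrate, and in LNCKO 1.76 and 1.54, from 467, 1727, 639 and 684 fragments. WT butyrate was thus the high library, and the other 3 lay between 1.22 and 1.76. With butyrate in WT, *Tmem119* was 3.52-fold higher (3.18 to 3.91), which placed it 16 from the highest of 11254 genes. In LNCKO the ratio was 0.872 (0.782 to 0.973). Of the 8 markers, *Tmem119* alone was higher by 1.5-fold or more with butyrate in WT, as were 3.34% of all genes tested. Under the same treatment in LNCKO, 0 of the 8 were past 1.5-fold upwards and 0 downwards, beside 1.64% and 0.906% of all genes tested (2.55% in either direction). The log2 change in WT exceeded that in LNCKO by 2.01, which ranked 23 from the highest of 11250 genes, and whether the genotypes differ could not be tested with single libraries.

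The other genes used to mark microglia did not share this pattern. Of the 7 genes read from that list, 6 passed the limit, and all 6 were lower with butyrate in WT. Their median log2 ratio was -0.24 beside -0.06 over all genes, of which 39.2% were above 1. *Olfml3*, which encodes a secreted matrix protein, was at least 1.5-fold lower, with FPKM of 0.933 in WT control and 0.342 in WT butyrate. *P2ry12*, the ADP receptor of microglia, had 0.406 and 0.351, and *Siglech*, a lectin also carried by plasmacytoid dendritic cells, had 7.66 and 5.57. *Sall1*, the transcription factor that defines microglia, had 0 fragments in 3 libraries and 4 in LNCKO butyrate. In LNCKO 2 of the 6 were above 1 with butyrate and 4 below, with a median of -0.09, and *Sparc*, a matrix protein gene also active in stromal cells, was past 1.5-fold upwards, with FPKM of 0.352 and 0.762. The 7 stromal genes, such as *Col1a1*, summed to 234 fragments per 1000000 untreated and 214 with butyrate in WT, and to 66.6 and 142 in LNCKO. With butyrate in WT, 4 of the 7 were above 1 and 3 below, with a median log2 ratio of 0.28, and 2, *Dcn* and *Cxcl12*, were past 1.5-fold upwards. With butyrate in LNCKO all 7 were above 1, with a median of 1.07, and 6 were past 1.5-fold upwards, beside 1.64% of all genes tested. Between controls all 7 were below 1 in LNCKO against WT, and 6 were past 1.5-fold downwards, beside 1.92% of all genes tested. The part of stromal cells in the *Tmem119* values was not tested.

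**Figure D2:**
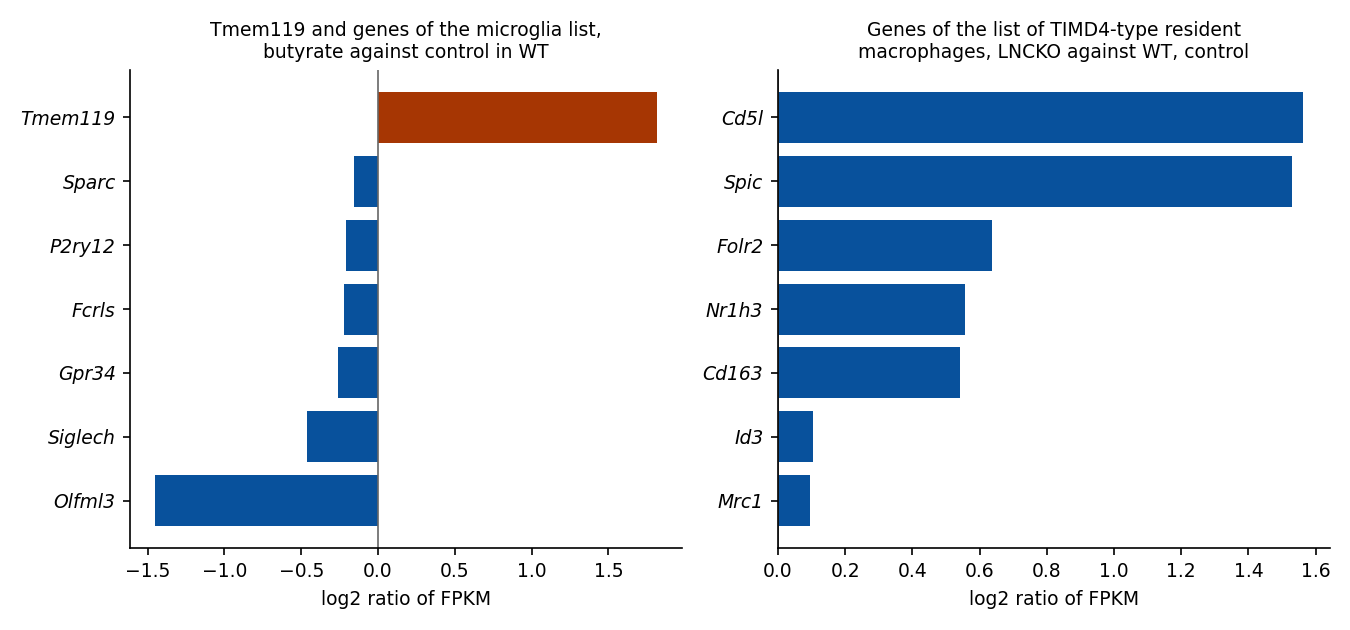
Bars give the log2 ratio of FPKM between 2 libraries (horizontal axis) for *Tmem119* (brown) and 6 microglia genes with butyrate in WT on the left, and for 7 genes of TIMD4-type resident macrophages between LNCKO and WT controls on the right. *Tmem119* lies at 1.82 while the 6 microglia genes lie below 0, and the 7 genes on the right lie between 0.10 and 1.56.

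*Cx3cr1* encodes the receptor of fractalkine, and it is low on inflammatory monocytes and high on gut-resident macrophages and patrolling monocytes. Its span lies on the - strand of chromosome 9 from 119901616 to 120069879. The span covers further genes, but of the genes there only an antisense transcript not among those listed shares exon bases with it (78 bases). In WT its FPKM was 0.826 untreated and 0.482 with butyrate, and in LNCKO 0.652 and 0.647, from 4799 to 7842 fragments. WT control was the highest library and WT butyrate the lowest, with the LNCKO libraries close together between them. Butyrate over control gave a ratio of 0.583 in WT (0.562 to 0.604), 164 from the lowest of 11254 genes, and of 0.993 in LNCKO (0.959 to 1.03). Of the 8 markers, *Cx3cr1* alone was lower by 1.5-fold or more with butyrate in WT, as were 2.91% of all genes tested. In either direction 2 of the 8 markers and 6.26% of all genes were past 1.5-fold. With a pseudocount of 1 *Cx3cr1* was not past 1.5-fold, as its log2 ratio was -0.30 in place of -0.78.

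*Ccr2* encodes the receptor that draws monocytes out of the bone marrow towards CCL2. The gene, at 124101950 to 124113557 of chromosome 9 (+ strand), has no overlapping neighbour. In WT its FPKM was 146 untreated and 132 with butyrate, and in LNCKO 131 and 132. WT control was the high library, and the other 3 were nearly level. With butyrate the ratio was 0.901 in WT (0.893 to 0.910) and 1.01 in LNCKO (0.997 to 1.02), and 50.3% of all genes lay as far from 1 as *Ccr2* did in WT. On exon length, *Ccr2* exceeded *Cx3cr1* by 8.12-fold in untreated WT cells and 12.6-fold with butyrate, against 9.22-fold and 9.34-fold in LNCKO. The gap between the monocyte receptor and the resident receptor was thus widest in WT butyrate.

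The ligands and neighbours of both receptors came from a list of 8 genes, of which 7 passed the limit. With butyrate in WT, 3 of the 7 were at least 1.5-fold higher, and all 3 encode chemokines: *Ccl7* had an FPKM of 23.5 in control and 46.6 with butyrate, *Ccl12* had 26.2 and 63.5, and *Ccl8* had 14.6 and 27.7. *Ccl2*, the main ligand of CCR2, had 63.0 and 76.2. In LNCKO, *Ccl8* was at least 1.5-fold higher as well, with 15.6 and 37.9, while *Ccl7* had 42.7 and 45.8. The median log2 ratio of the 7 genes was 0.48 in WT and 0.09 in LNCKO. *Cx3cl1*, which encodes fractalkine, had 67 to 122 fragments in a library.

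The study describes the turn from monocyte to gut-resident macrophage by lower *Ccr2*, *Adgre1*, *F10* and *Ly6c* genes and higher *Cx3cr1* and *Mrc1*. With butyrate in WT, *Ccr2* was lower, with a log2 ratio of -0.15. *Adgre1* was higher, at 0.22, as were *F10*, a coagulation factor gene, at 0.14, and the monocyte surface genes *Ly6c1*, at 0.32, and *Ly6c2*, at 0.33. *Cx3cr1*, at -0.78, and *Mrc1*, the mannose receptor CD206, at -0.12, were lower. Of the 7 genes, *Cx3cr1* was the only one past 1.5-fold. In LNCKO the same genes lay between -0.26, for *Mrc1*, and 0.12, for *Ly6c1*. Among 10 genes of inflammatory monocytes, 2 were at least 1.5-fold higher with butyrate in WT, *Fn1* (fibronectin), with FPKM of 3.22 and 8.56, and *Vcan* (versican), with 1.77 and 3.34, and 0 of the 10 were past 1.5-fold in LNCKO.

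*Cd14* encodes the surface protein that passes lipopolysaccharide to TLR4, and it is carried by monocytes, macrophages and neutrophils. Its position is 36725067 to 36726798 of chromosome 18 (- strand). The FPKM of *Cd14* was 88.6 untreated and 60.0 with butyrate in WT, and 95.6 and 76.3 in LNCKO. Both butyrate libraries were below both control libraries. The ratio with butyrate was 0.677 in WT (0.655 to 0.699) and 0.797 in LNCKO (0.774 to 0.821), within 1.5-fold in both, and 6.77% and 8.58% of all genes lay as far from 1. Of the 8 partners of CD14 in lipopolysaccharide sensing, all passed the limit and 0 were past 1.5-fold with butyrate in either genotype. *Tlr4*, the signalling receptor, had FPKM of 0.851 to 0.960 over the libraries, and *Myd88*, its adaptor, had 30.2 to 34.2. The range of *Cd14* over the libraries was 1.59-fold, wider than that of both.

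*Itgam* encodes CD11b, the alpha chain of the integrin that binds complement fragments on myeloid cells. *Itgam* lies at 128062640 to 128118491 of chromosome 7 (+ strand). In WT its FPKM was 21.5 untreated and 24.3 with butyrate, and in LNCKO 20.2 and 20.8. The ratio with butyrate was 1.13 in WT (1.12 to 1.14) and 1.03 in LNCKO (1.02 to 1.04). In LNCKO these values changed direction when the fragments of an overlapping gene were added. *Gm49368*, a gene model on the same strand from 128062683 to 128128160, shares 3450 of the 5024 exon bases of *Itgam*. It was given 604 fragments in untreated WT cells and 675 with butyrate, against 7001 and 844 in LNCKO. LNCKO control thus differed from the other 3 libraries: 10.4% of the fragments of both genes stood under *Gm49368* there and 0.833% to 1.10% elsewhere. With the fragments of both genes summed, an alternative chosen after seeing the data, the ratio with butyrate was 1.13 in WT and 0.933 in LNCKO (0.924 to 0.943), and the direction in LNCKO turned. Between controls, LNCKO over WT turned from 0.941 for *Itgam* alone to 1.04 for the sum (1.03 to 1.05).

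**Figure D3:**
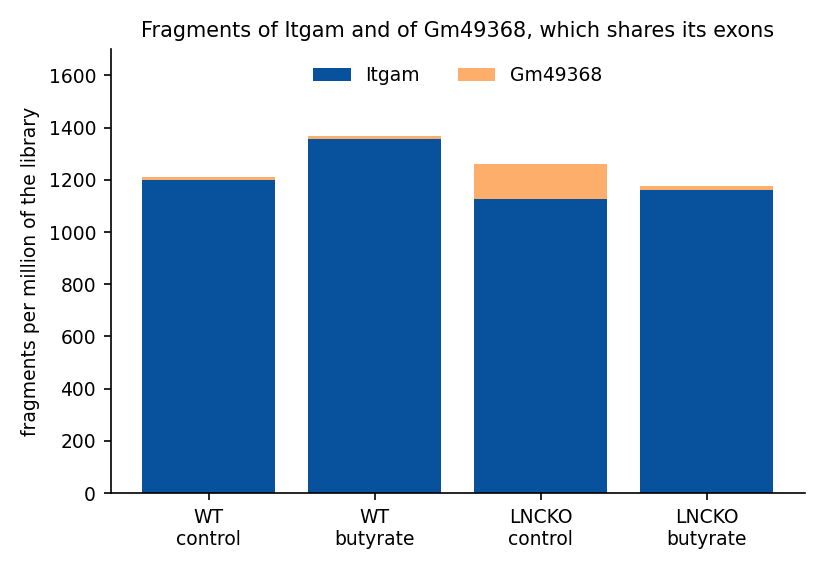
Stacked bars give the fragments of *Itgam* (blue) and *Gm49368* (orange) per 1000000 fragments of the library (vertical axis, from 0), 1 library per bar. *Gm49368* takes 131 in LNCKO control and 10.7 to 12.9 in the other libraries, and the sums are 1209, 1368, 1259 and 1175 from left to right.

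*Itgb2*, the beta chain that pairs with CD11b, had an FPKM of 15.6 untreated and 14.5 with butyrate in WT, and 15.2 and 14.4 in LNCKO. Of the 6 integrin partners, 5 passed the limit and 0 were past 1.5-fold with butyrate in either genotype. Neutrophils carry CD11b as well. Their list had 3 of 10 genes at least 1.5-fold higher with butyrate in WT, *Mmp8*, *Elane* and *Ly6g*, with a median log2 ratio of 0.40. Of the 10, 7 were above 1 in WT and 3 below, *Camp*, at -0.45, *Ngp*, at -0.35, and *Ltf*, at -0.19. In LNCKO 0 of the 10 were past 1.5-fold, with a median of -0.04. What part such cells have in the *Itgam*, *Adgre1* and *Cd14* values was not tested.

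*Adgre1* encodes F4/80, the adhesion receptor by which mouse macrophages are usually recognized. Its span, free of other genes, runs on the + strand of chromosome 17 from 57358691 to 57483527. In WT its FPKM was 6.40 untreated and 7.45 with butyrate, and in LNCKO 6.63 and 5.86, from 44179 to 55064 fragments. The butyrate libraries were the highest and the lowest of the 4, with both controls between them. Butyrate over control was 1.16 in WT (1.15 to 1.18) and 0.883 in LNCKO (0.872 to 0.895). The intervals lie on opposite sides of 1, but 35.1% of all genes in WT and 22.3% in LNCKO lay as far from 1. Of the 10 macrophage identity genes, all 10 lay above 1 with butyrate in WT and 8 in LNCKO, beside 39.2% and 42.1% of all genes tested. Their medians were 0.24 and 0.06 on the log2 scale. The 1 gene of that list past 1.5-fold, downwards in LNCKO, was *Lyz2*, the lysozyme gene, with FPKM of 1972 and 2871 in WT and of 1609 and 870 in LNCKO.

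*Csf1r* encodes the receptor of M-CSF, the factor in which these cells were grown. It lies on the + strand of chromosome 18 from 61100598 to 61132149 and shares 873 exon bases with *Hmgxb3* on the opposite strand, which had 1582 to 1869 fragments against 68749 to 86908 for *Csf1r*. In WT its FPKM was 46.5 untreated and 46.5 with butyrate, and in LNCKO 40.8 and 38.3. Both WT libraries were level with each other and above both LNCKO libraries. Butyrate over control was 1.00 in WT (0.990 to 1.01) and 0.938 in LNCKO (0.928 to 0.948). The ligand gene *Csf1* had FPKM of 2.22 to 2.74 and *Il34*, the other ligand, had at most 20 fragments. The related growth factor receptors *Csf2ra*, *Csf2rb*, *Csf3r*, *Flt3* and *Kit* were within 1.5-fold with butyrate in both genotypes.

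*Mertk* encodes a receptor kinase by which macrophages take up dying cells. Its span runs from 128698956 to 128802894 of chromosome 2 (+ strand), and no overlapping gene shares exon bases with it. *Mertk* had an FPKM of 1.23 untreated and 1.39 with butyrate in WT, and of 1.24 and 1.30 in LNCKO, a range of 1.12-fold. Both butyrate libraries were above both controls by a small margin. The ratio with butyrate was 1.12 in WT (1.09 to 1.16) and 1.05 in LNCKO (1.02 to 1.08). Among 13 other genes of dying cell uptake, 11 passed the limit and 2 were past 1.5-fold downwards with butyrate in WT, *Itgav*, an integrin chain, with FPKM of 1.17 and 0.738, and *Pros1*, a bridging ligand of MERTK, with 0.376 and 0.238. In LNCKO the same genes had 1.29 and 1.24, and 0.241 and 0.306, and 0 of the 11 were past 1.5-fold. The median log2 ratio of the 11 genes was -0.34 in WT and -0.01 in LNCKO. The sister receptor *Axl* had 11.3 in WT control, 13.8 in WT butyrate and 10.3 in both LNCKO libraries.

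**Figure D4:**
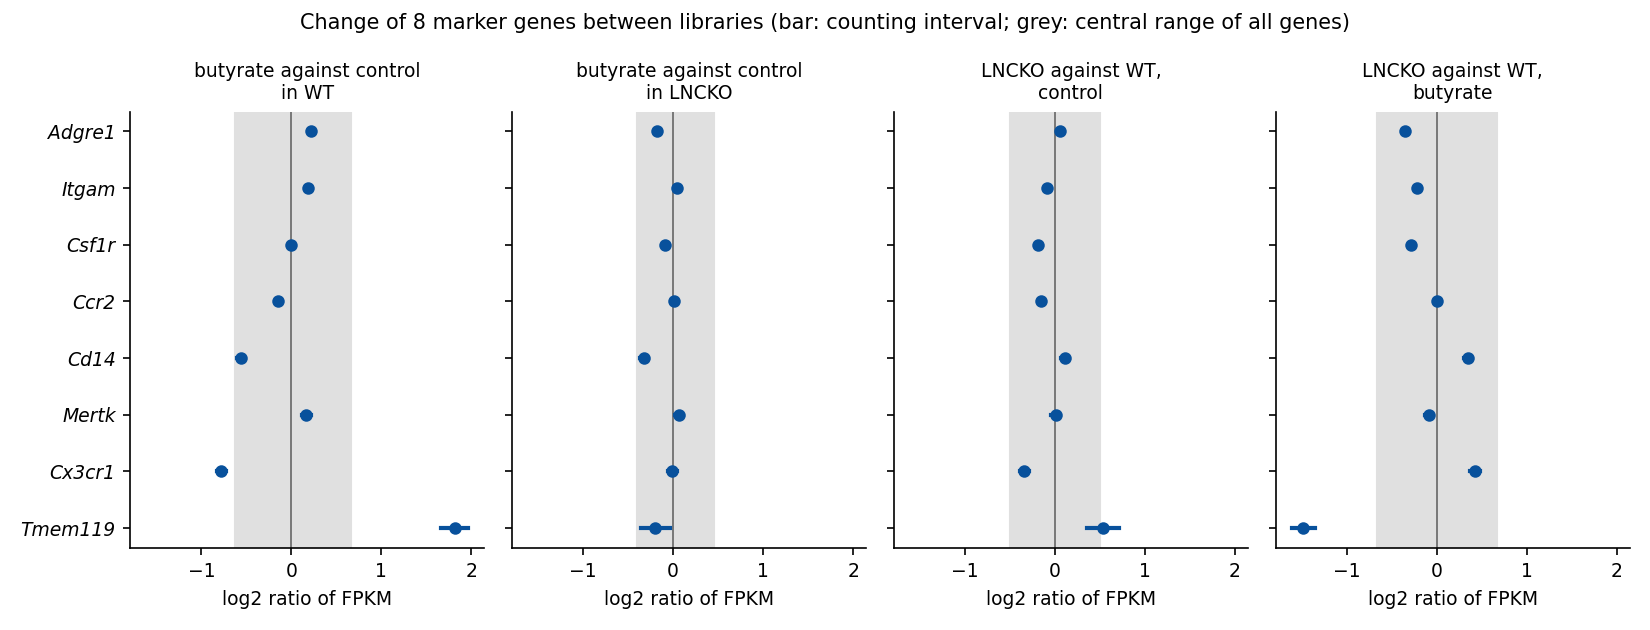
Points give the log2 ratio of FPKM (horizontal axis) of the 8 markers that passed the limit in the 4 comparisons, bars their 95% counting intervals, and grey bands the range that holds the central 95% of all genes tested. *Tmem119* and *Cx3cr1* lie outside the band with butyrate in WT, at 1.82 and -0.78, *Tmem119* lies outside it in both genotype comparisons, at 0.53 and -1.48, and all 8 lie inside it with butyrate in LNCKO.

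Over the 8 markers, the median log2 ratio with butyrate was 0.08 in WT and -0.05 in LNCKO, beside -0.06 and -0.02 over all genes tested. In WT, 376 of all genes were at least 1.5-fold higher and 328 lower. With libraries scaled by their median ratio these became 458 and 262, and with fragments per exon length rescaled to 1000000 per library 335 and 402, so that the balance of both directions depends on the scaling. These medians hold markers of opposite states and say little of any single gene.

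Between the genotypes without butyrate, 0 of the 8 markers were past 1.5-fold upwards in LNCKO and 0 downwards, beside 1.59% and 1.92% of all genes tested (3.51% in either direction). The furthest were *Tmem119*, with a ratio of LNCKO over WT of 1.45 (1.28 to 1.63), and *Cx3cr1*, with 0.789 (0.762 to 0.816). *Csf1r* had 0.877 (0.868 to 0.886) and *Ccr2* 0.895 (0.886 to 0.903), while *Mertk*, level in both genotypes, had 1.01 (0.972 to 1.04). *Adgre1*, at 1.04, and *Cd14*, at 1.08, were slightly above 1. The median log2 ratio of the 8 was -0.04 beside 0.02 over all genes, and 0.03 with *Itgam* summed with *Gm49368*.

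Under butyrate, 0 of the 8 markers were past 1.5-fold upwards in LNCKO against WT and 1 downwards, beside 3.31% and 3.18% of all genes tested (6.49% in either direction). Those were 373 genes higher and 358 lower, which became 303 and 432 under the median ratio and 443 and 320 with fragments per exon length. This comparison shares its libraries with those above. The lower marker was *Tmem119*, with a ratio of 0.358 (0.327 to 0.391), 41 from the lowest of 11255 genes. *Cx3cr1*, at 1.34 (1.30 to 1.39), and *Cd14*, at 1.27 (1.23 to 1.31), were higher in LNCKO. *Adgre1*, at 0.786, *Csf1r*, at 0.823, *Itgam*, at 0.856, and *Mertk*, at 0.939, were lower, and *Ccr2*, at 0.999, was level.

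*Timd4* encodes a receptor for phosphatidylserine, the lipid that dying cells expose. No annotated gene overlaps its span at 46810800 to 46844332 of chromosome 11 (+ strand). In WT it had 0 fragments untreated and 10 with butyrate, and in LNCKO 58 and 64. Both LNCKO libraries were thus above both WT libraries, but all values are low, with the highest at 1.09 fragments per 1000000. For the count of 0 in WT control a floor of 3 fragments was set, while the 95% counting interval of that count reaches 3.69. Against the floor, LNCKO control was 20.4-fold higher, a value that depends on the floor and is not an observed ratio. With the counting error of both libraries the 95% interval of the ratio began at 16.1. Under butyrate the ratio of LNCKO over WT was 5.78 (2.95 to 12.6), and within LNCKO the ratio with butyrate was 0.899 (0.620 to 1.30).

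Other genes of TIMD4-type resident macrophages were read from a list of 10, of which 9 were listed and 7 passed the limit. Between controls, 3 of the 7 were at least 1.5-fold higher in LNCKO and 0 lower, and the median log2 ratio of the 7 was 0.56 beside 0.02 over all genes. *Cd5l*, a secreted protein of tissue macrophages, had FPKM of 2.37 in WT control and 2.24 in WT butyrate against 7.01 and 6.85 in the LNCKO libraries. *Spic*, a transcription factor of iron-recycling macrophages, had 0.180 and 0.224 against 0.520 and 0.533. *Folr2*, a folate receptor, had 1.83 and 3.64 against 2.84 and 2.94, so that its WT butyrate library was above both LNCKO libraries. Under butyrate 4 of the 7 were past 1.5-fold upwards in LNCKO against WT, *Cd5l*, *Spic*, *Id3*, which encodes a repressor of transcription, and *Nr1h3*, the oxysterol receptor LXR alpha. The other 3 were below 1, *Folr2*, at -0.31 on the log2 scale, *Cd163*, at -0.08, and *Mrc1*, at -0.05. The median of the 7 was 0.60. *Lyve1* and *Vsig4* had at most 14 fragments in a library. The 5 listed genes of red cell precursors also summed to higher levels in LNCKO, with 3.33 and 3.56 fragments per 1000000 in WT and 10.6 and 28.2 in LNCKO, mostly from the hemoglobin gene *Hba-a1* and with *Epb42* at 0 in all 4 libraries. Their part in the *Timd4* values was not tested.

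The genes most like a marker over the 4 libraries were sought for the 3 markers whose range was at least 1.5-fold and which passed the limit. Likeness was the distance between log2 FPKM values, each centred on the mean of its gene, over 7880 genes with a mean of at least 1000 fragments per library. *Tmem119* was nearest to *Selenom* (distance 0.155), a selenoprotein gene with FPKM of 3.89 untreated and 14.8 with butyrate in WT and of 5.26 and 5.11 in LNCKO, and then to *Inpp5j* (0.316) and *Ccl5* (0.418). *Cx3cr1* was nearest to *Cacnb3* (0.050), a calcium channel subunit gene with 2.16, 1.26, 1.76 and 1.76 in the same order, and then to *Isoc2a* (0.0736) and *Alcam* (0.0955). *Cd14* was nearest to *Pik3ip1* (0.0328), with 1.88, 1.28, 2.09 and 1.65, and then to *Brip1* (0.0681) and *Phkg2* (0.0719). Over 4 libraries many genes share a pattern, and these names only describe it.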

How the data were processed

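RNA sequencing values of 4 groups with 1 library each were used. The authors deposited FPKM of each gene and library. The methods name an MGISEQ-2000 platform and a provider's web platform, whereas the labels name Illumina protocols, and which was used is not settled. The submitters' processing notes name STAR 2.5.0c, HTSeq 0.6.0, Picard 1.126 and bedtools 2.17.0 and the build GRCm38, without their roles. The annotation and the use of strand are not given in the sources used here.

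Library totals were found as the numbers that turn FPKM into whole fragments, given gene spans of GENCODE M21 on GRCm38. With a tolerance of 0.05, 16112 of 16342 matched genes (98.6%) were whole in all 4 libraries on the span and 7.48% on the exon length, and all 9 markers were whole on the span. Levels per exon length (all exons of a gene merged) assume that fragments were counted on exons. The self-test of these steps used simulated data.

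The markers and gene lists were chosen with earlier results of these data known. Genes named are the markers, genes of the lists and, for markers with a range of at least 1.5-fold, the 3 genes nearest in pattern. *Gm49368* and *Hmgxb3* were named after their values were seen. Lists of dendritic, T and NK cells, mast cells and basophils, and Ly6C-low monocytes were also read. An item of the lists is not reported here. Alternatives were pseudocounts of 1 and 0.1, other filters, other scalings and a 2-fold limit. Values were computed in Python 3.11.15 with pandas 2.3.3, numpy 2.4.6 and scipy 1.17.1, and drawn with matplotlib 3.10.9.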

Additional observations from a re-analysis of the deposited data

Results flagged for a closer look

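For 2 markers the butyrate change had opposite directions in WT and LNCKO with both counting intervals on opposite sides of 1. For *Tmem119* the log2 change in WT minus that in LNCKO was 2.01, and for *Adgre1* it was 0.40. With 1 library per group, neither difference was tested, and 0.391% and 17.1% of all genes had a difference at least as far from 0.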

How the results depend on the processing

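No paired analysis was possible because each group holds 1 library, and no library could be left out without emptying its group. The counts of all genes past 1.5-fold, which were 704 with butyrate in WT, 287 with butyrate in LNCKO, 395 between controls and 731 between butyrate libraries, depended on the setting. In the same order they were 97, 38, 46 and 108 when 1 was added to each FPKM, and 337, 118, 174 and 378 when 0.1 was added. They were 2245, 1622, 1820 and 2324 with no filter on low values, 170, 58, 83 and 208 when a mean FPKM of 1 or more was required, and 193, 107, 136 and 218 past 2-fold. The 1 marker lower with butyrate in WT, *Cx3cr1*, became 0 when 1 was added, when a mean FPKM of 1 was required, which it does not reach, and past 2-fold. With fragments per exon length rescaled to 1000000 per library there were 2, since *Cd14* joined it at -0.60. With no filter, *Timd4* was 1 marker higher in LNCKO under butyrate. With libraries scaled by their median ratio, 4 markers had opposite butyrate changes, as *Ccr2* and *Csf1r* joined at log2 sizes under 0.1. *Tmem119* kept its direction in all 4 comparisons under each alternative. Of 192 values of single markers, 48 moved outside the counting interval of their main value. These included 21 with libraries scaled by their median ratio and 13 with fragments per exon length. Without pseudocounts the largest shift was 0.146 on the log2 scale. Of the 192, 0 that were past 1.5-fold reversed, and 7 values of size under 0.1 changed sign. Depth limits *Timd4* most, with at most 64 fragments.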

Other observations

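Genes of mast cells and basophils, which are not among the markers, were higher in LNCKO than in WT in both treatments: of the 5 that passed the limit, 4 were at least 1.5-fold higher between controls and 5 under butyrate, with medians of 0.61 and 0.98 on the log2 scale. *Prss34*, a basophil protease gene, had an FPKM of 38.0 untreated and 29.3 with butyrate in WT, and of 58.0 and 56.9 in LNCKO. Of 6 genes of Ly6C-low monocytes that passed the limit, 2 were at least 1.5-fold higher in LNCKO between controls. *Nr4a1*, the nuclear receptor on which these monocytes depend, had 0.840 untreated and 0.511 with butyrate in WT, and 1.62 and 1.23 in LNCKO. Under butyrate 1 of the 6, *Nr4a1*, was past 1.5-fold upwards in LNCKO against WT and 1, *Treml4*, downwards, with a median of 0.05. For *Nr4a1*, both butyrate libraries were below the control library of their genotype, and both LNCKO libraries were above both WT libraries. Of 6 dendritic cell genes that passed, 0 were past 1.5-fold with butyrate in WT, with a median of -0.33, and 0 in LNCKO, with a median of -0.08. Of 8 T and NK cell genes, 3 passed the limit and 0 were past 1.5-fold with butyrate in either genotype. All 7 B cell genes were below 1 with butyrate in WT, with a median of -0.25, and 1, *Vpreb3*, was past 1.5-fold downwards. Of all genes tested, 39.2% were above 1 in that comparison. In LNCKO 4 of the 7 were above 1, 0 were past 1.5-fold, and the median was 0.00. Under butyrate all 7 were above 1 in LNCKO against WT, with a median of 0.37, beside 60.7% of all genes tested above 1. Their part in the marker values was not tested. Differences here have no replicate check.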
